A study of Mus musculus with 9 samples.

Results

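Small nucleolar RNAs (snoRNAs) are short RNAs of the nucleolus that guide the chemical modification of ribosomal RNA. Their levels were followed here in mouse nasal mucosa on 9 whole-transcript arrays (Affymetrix Mouse Gene 1.0 ST). The members are all genes with a probe set of their own whose platform symbol is Snora or Snord followed by a number. There were 51 such genes, on 56 probe sets, among 19938 genes with a single-gene probe set. Of the 51, 20 are H/ACA box snoRNAs (Snora) and 31 are C/D box snoRNAs (Snord). For a gene with several probe sets, the representative was chosen by its mean over the 9 arrays, the highest being kept, so the mean levels were used in the choice and are given as description only. No difference between groups entered the choice of a member, but the family was chosen with earlier results of these data known, and its counts and medians are therefore set beside those of all probe sets and carry no test of their own. A further 41 probe sets are annotated to several genes that include a snoRNA, and they are not members.

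The mice were BALB/c, an inbred strain used for allergic airway models, labelled male and 6 to 8 weeks old, with 3 arrays per group. In the 4-week group the mice were made allergic with ovalbumin (OVA), the main protein of hen egg white, by sensitisation and challenge, and tissue was collected 4 weeks after the last challenge. The OVA group had that same treatment, and its tissue was collected 2 hours after the last challenge. Time since the last challenge and age at collection cannot be told apart between these groups. The control mice received saline at sensitisation and at challenge. Nothing in the labels ties the arrays to separate animals. The p-values therefore measure the spread between these arrays alone, and that spread may be technical.

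The sex-linked transcripts went against the label of the control arrays. Xist, made from the silenced X chromosome of females, averaged 4.33 ± 0.08 in the 4-week arrays, 4.29 ± 0.07 in the OVA arrays and 10.81 ± 0.26 in the arrays labelled control (log2, SD, n = 3 each). The Y-linked gene Eif2s3y averaged 8.25 ± 0.17 in the 4-week arrays, 8.28 ± 0.20 in the OVA arrays and 3.31 ± 0.29 in the arrays labelled control. The female pattern was thus found in all 3 arrays labelled control, and sex and treatment cannot be told apart in any comparison with them. The 4-week and OVA arrays had the same sex pattern, and their comparison is given first. The array medians over all probe sets lay between 6.38 and 6.45. In bulk tissue, fewer cells of a type and less RNA per cell cannot be told apart.

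C/D box snoRNAs guide 2′-O-methylation of ribosomal RNA with the methyltransferase fibrillarin and its partners Nop56, Nop58 and Snu13. H/ACA box snoRNAs guide the conversion of uridine to pseudouridine with dyskerin (Dkc1) and its partners Gar1, Nhp2 and Nop10. Some snoRNAs also act, or act only, in cutting the ribosomal RNA precursor, among them Snord118 (U8), Snord22 (U22), the Snord14 family (U14) and Snora73a and Snora73b (U17). Most mammalian snoRNAs are cut out of introns of host genes, many of which encode ribosomal proteins or translation factors or are non-coding RNAs of the Snhg group. Many of these hosts begin transcription at a pyrimidine-rich start, known as a TOP promoter. A probe set that lies within an intron can read both the mature snoRNA and the unspliced host RNA, and these cannot be told apart on this array.

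The annotated gene spans placed 50 of the 51 members within 40 host genes. The host of 37 members is protein-coding and that of 13 members is a long non-coding RNA, while Snord118, which has its own promoter, lay within no other gene. The hosts of 23 members encode ribosomal proteins, with Rack1, the host of Snord95 and Snord96a, counted among them. The start regions of some hosts of members named below are shown as examples. Each line gives 50 bases, 30 before and 20 from the annotated start on, from RefSeq on the GRCm38.p6 build. Capitals mark each pyrimidine tract (a C followed by at least 4 further C or T) that starts within 20 bases of the annotated start. Every region printed here holds such a tract. Those of Tpt1, Rpl10, Ncl, Eef1b2, Rps3, Rps3a1, Nop56, Snhg1, Rpl23 and Kansl2, also hosts of members named below, hold none.
Snhg12, host of Snora44 and Snora16a, chr4:132308648-132308697 (+): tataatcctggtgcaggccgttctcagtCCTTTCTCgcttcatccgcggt
Gm36220, host of Snord104, chr11:106500885-106500934 (+): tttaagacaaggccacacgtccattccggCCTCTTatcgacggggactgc
2410006H16Rik, host of Snord49a and Snord49b, chr11:62602847-62602896 (+): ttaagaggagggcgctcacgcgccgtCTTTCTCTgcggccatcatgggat
Rplp2, host of Snora52, chr7:141447621-141447670 (+): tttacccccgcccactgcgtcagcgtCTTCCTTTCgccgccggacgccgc
Rpl27a, host of Snora3, chr7:109519165-109519214 (+): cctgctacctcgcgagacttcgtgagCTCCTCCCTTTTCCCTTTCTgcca
Rpl13a, host of Snord33 and Snord35a, chr7:45128726-45128775 (-): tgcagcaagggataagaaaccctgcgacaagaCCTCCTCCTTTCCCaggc
Of the 40 hosts, 30 had a start region in the RefSeq table, with 32 annotated starts. The annotated start base was itself a C followed by at least 4 further C or T, whether or not the tract had begun before it, in 6 of the 32 (18.8%), against 2.51% of all 32851 start regions. A tract began within 20 bases of the start in 20 of the 32 (62.5%), against 49.4% of all. Fewer of the 32 windows of 50 bases carried a marked tract. The Eef2 window, for example, ends in a C followed by 4 further C or T and was not marked. The count of 20 is therefore uncertain, and no excess is read from it. The coding strand was searched. A match describes the letters of the window and not a working site.

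The members spanned most of the intensity range of the array. The mean over the 9 arrays ran from 4.36 to 11.18 (median 6.92) in the H/ACA members and from 2.61 to 11.33 (median 6.76) in the C/D members, beside a median of 6.39 over all genes. The brightest probe sets were those of Snora52, Snora7a and Snora73b in the H/ACA class and of Snord57, Snord104 and Snord82 in the C/D class. The dimmest were those of Snora2b and Snora75 (4.36 and 5.53) in the H/ACA class and of Snord58b and Snord38a (2.61 and 2.99) in the C/D class. Intensities of different probe sets do not rank the amounts of their RNAs. In all, 8 members had a mean under 5, where signal over background is unknown because the table holds no detection calls. The H/ACA members were longer, with a median of 125 nucleotides (61 to 205), than the C/D members, with a median of 68 (45 to 148).

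**Figure D1:**
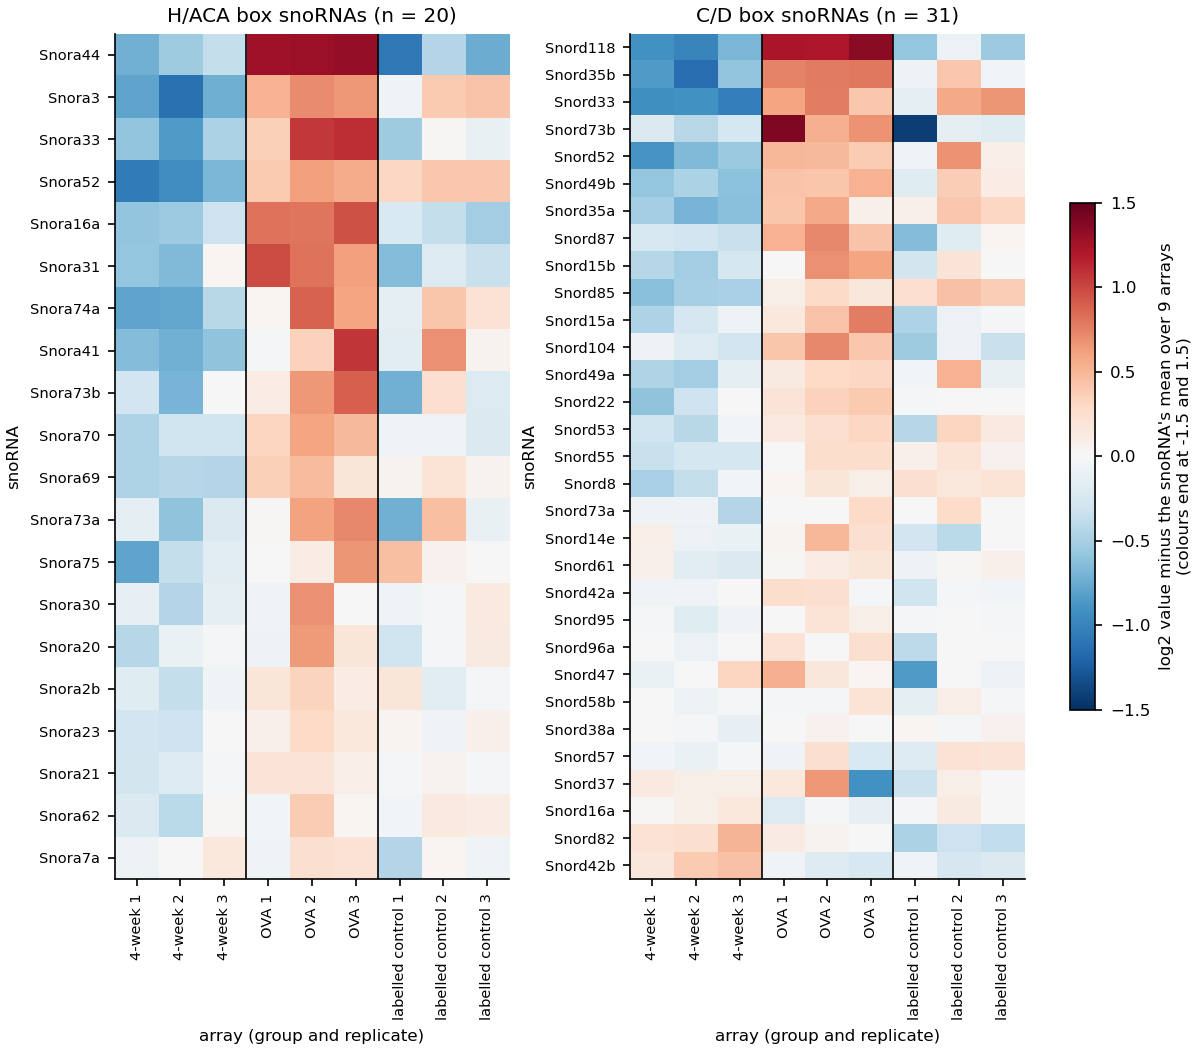
Heat maps of the 20 H/ACA and 31 C/D members (rows, sorted by the difference between 4-week and OVA arrays) over the 9 arrays (columns). Colour gives the log2 value minus the member's mean over the 9 arrays. The OVA columns hold the highest group mean in 44 of the 51 rows, and the 4-week columns hold the lowest in 39.

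The snoRNAs as a group had their highest level in the OVA arrays. The OVA mean was the highest of the 3 group means in 20 of 20 H/ACA members and 24 of 31 C/D members, or 86.3% of the 51, against 27.2% of all probe sets. The 4-week mean was the lowest in 18 H/ACA and 21 C/D members, or 76.5%, against 44.9% of all probe sets.

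The difference between the 4-week and the OVA arrays was the broadest. With limma and Benjamini-Hochberg adjustment over 23410 probe sets, 11 of 20 H/ACA members fell in the 4-week arrays and none rose at an adjusted p under 0.05. Of the 31 C/D members, 13 fell, 1 rose and 17 did not pass. Together 24 of 51 members fell (47.1%), where 2.51% of all probe sets fell, and 1 rose (1.96%), where 3.81% of all probe sets rose. The median log2 change was -0.80 over the H/ACA members and -0.46 over the C/D members, against -0.02 over all probe sets. Every H/ACA change was negative, and 27 of the 31 C/D changes were. All 3 4-week arrays lay below all 3 OVA arrays in 17 H/ACA and 19 C/D members, against 13.7% of all probe sets, and above them in 0 H/ACA and 3 C/D members, against 14.5%.

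**Figure D2:**
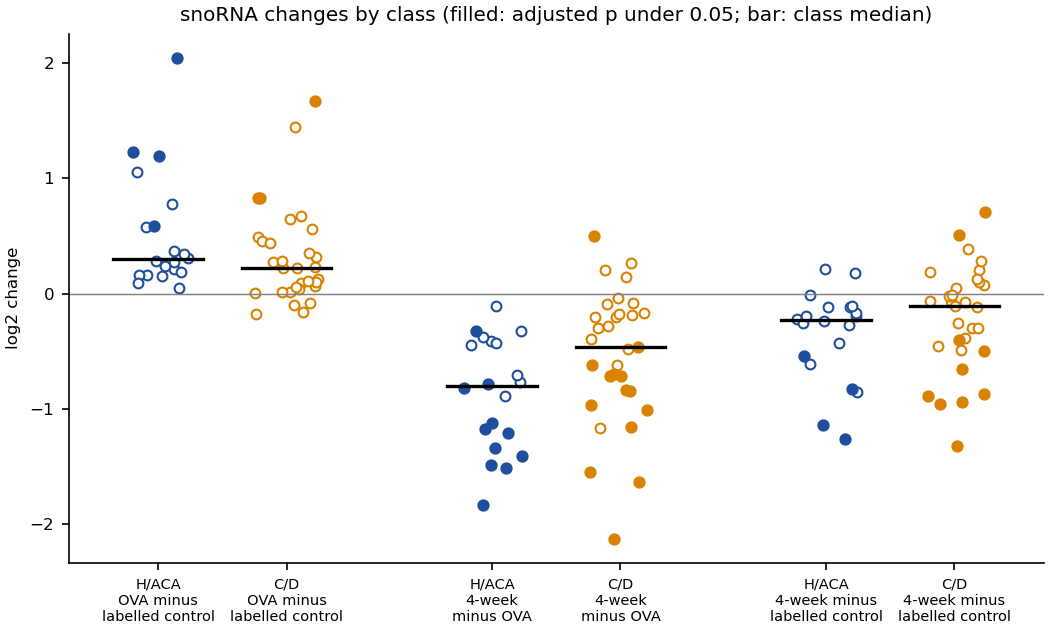
Log2 change of each member in each of the 3 comparisons, by class. Points are genes, filled where the limma adjusted p was under 0.05, and the bars are class medians. The 4-week minus OVA medians of -0.80 (H/ACA) and -0.46 (C/D) lie below 0, and the OVA minus labelled control medians of 0.30 and 0.22 above it.

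Snord118, the U8 snoRNA needed to process the precursors of 5.8S and 28S ribosomal RNA, had the largest change of any member in this comparison. It measured 8.22, 8.13 and 8.44 in the 4-week arrays, 10.35, 10.33 and 10.48 in the OVA arrays, and 8.54, 9.04 and 8.58 in the arrays labelled control. The OVA values stood apart from all 6 others. Snord118 was 4.36-fold lower in the 4-week than in the OVA arrays (log2 change -2.12, SE 0.14, limma adjusted p = 0.00100). Its second probe set held identical values, so it is no further evidence.

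Snora44 and Snora16a both lie in Snhg12, a long non-coding RNA whose start region is printed above. Snora44 measured 7.41, 7.59 and 7.78 in the 4-week arrays, 9.40, 9.41 and 9.46 in the OVA arrays, and 7.06, 7.69 and 7.38 in the arrays labelled control. Snora16a measured 7.60, 7.65 and 7.88 in the 4-week arrays, 9.01, 8.99 and 9.15 in the OVA arrays, and 7.96, 7.83 and 7.67 in the arrays labelled control. In both, the OVA arrays were high and did not overlap either other group. Snora44 was 3.56-fold lower (log2 change -1.83, SE 0.15) and Snora16a 2.53-fold lower (-1.34, SE 0.10) in the 4-week than in the OVA arrays, each with a limma adjusted p of 0.00174. Snhg12 itself had no single-gene probe set.

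Snora31, in the gene of the translationally controlled tumour protein Tpt1, had the same shape. It measured 5.84, 5.74 and 6.43 in the 4-week arrays, 7.39, 7.22 and 7.02 in the OVA arrays, and 5.76, 6.21 and 6.08 in the arrays labelled control. The 4-week and labelled control arrays overlapped, and the OVA arrays lay above both. The difference between 4-week and OVA arrays was -1.20 (SE 0.19, 2.30-fold, limma adjusted p = 0.0105).

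A second set of members was low in the 4-week arrays relative to both other groups. Snora52, hosted by the gene of the acidic ribosomal protein Rplp2, measured 10.13, 10.25 and 10.49 in the 4-week arrays, 11.57, 11.79 and 11.74 in the OVA arrays, and 11.49, 11.58 and 11.58 in the arrays labelled control. The 4-week arrays lay below all 6 others, and the OVA and labelled control arrays overlapped. It was 2.66-fold lower in the 4-week than in the OVA arrays (log2 change -1.41, SE 0.10, limma adjusted p = 0.00174).

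Snora3, in the gene of ribosomal protein Rpl27a, measured 7.53, 7.20 and 7.59 in the 4-week arrays, 8.85, 9.04 and 8.97 in the OVA arrays, and 8.27, 8.71 and 8.75 in the arrays labelled control. Again the 4-week arrays were the low group. It was 2.85-fold lower in the 4-week than in the OVA arrays (log2 change -1.51, SE 0.15, limma adjusted p = 0.00225). The second probe set of Snora3 gave -1.49 (adjusted p = 0.00225).

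Snord33 and Snord35a lie in introns of Rpl13a, and Snord35b was read beside them. The Rpl13a snoRNAs are known from cultured rodent cells as RNAs that act in the response to lipid overload. Snord33 measured 6.19, 6.21 and 6.08 in the 4-week arrays, 7.70, 7.89 and 7.53 in the OVA arrays, and 6.97, 7.69 and 7.78 in the arrays labelled control. Snord35b measured 6.67, 6.38 and 6.92 in the 4-week arrays, 8.26, 8.29 and 8.31 in the OVA arrays, and 7.44, 7.93 and 7.47 in the arrays labelled control. Snord35a measured 7.58, 7.39 and 7.46 in the 4-week arrays, 8.51, 8.66 and 8.17 in the OVA arrays, and 8.16, 8.49 and 8.40 in the arrays labelled control. In all of these the 4-week arrays lay below the other 6. Against the OVA arrays Snord33 was 2.91-fold (log2 change -1.54, SE 0.20, limma adjusted p = 0.00508), Snord35b 3.10-fold (-1.63, SE 0.16, 0.00225) and Snord35a 1.95-fold lower (-0.96, SE 0.13, 0.00713).

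**Figure D3:**
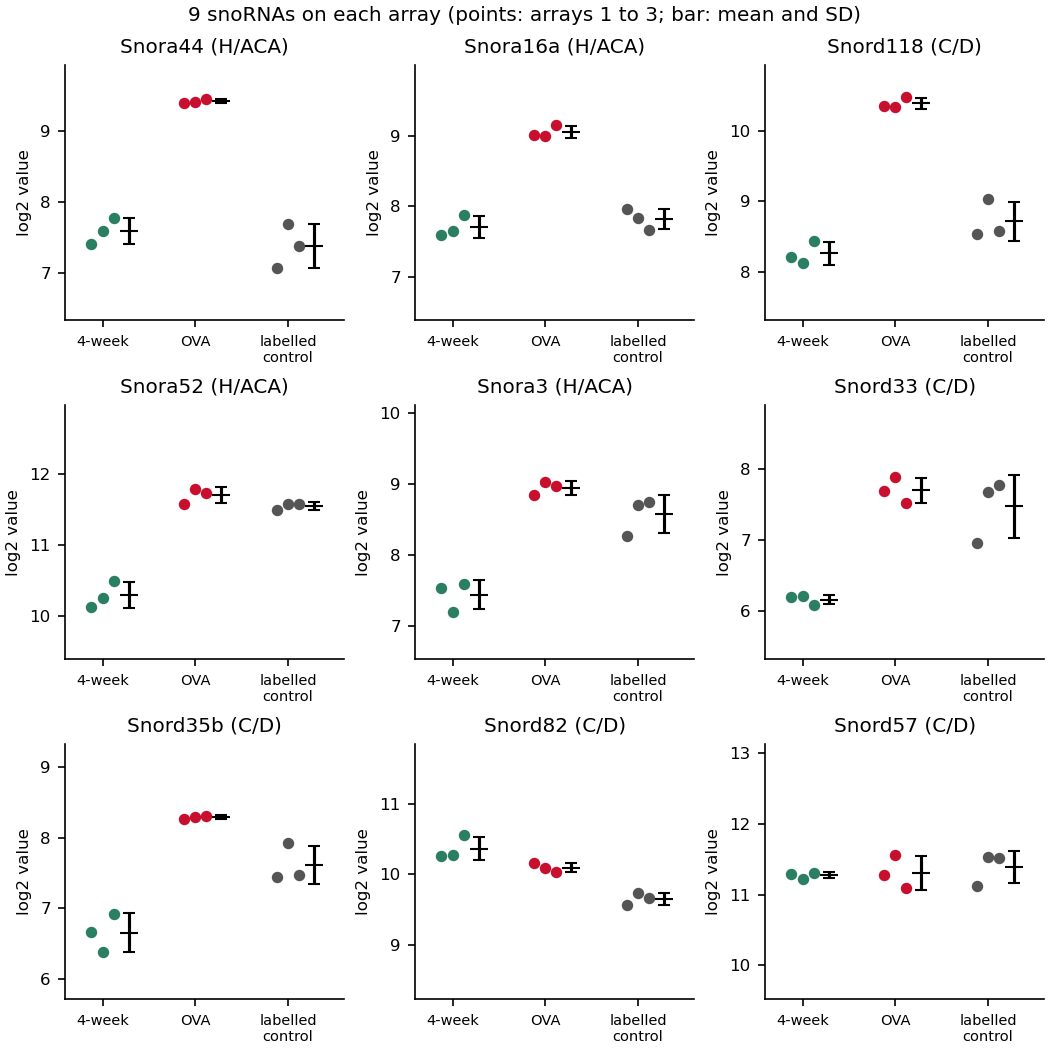
Log2 values of 9 members on each array, in the order 4-week, OVA, labelled control. Points are arrays and bars are the mean and SD of 3 arrays, and every panel spans the same number of log2 units. Snora44, Snora16a and Snord118 are high in the OVA arrays, Snora52, Snora3, Snord33 and Snord35b low in the 4-week arrays, Snord82 lowest in the arrays labelled control, and Snord57 overlaps in all groups.

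Snora33 of the H/ACA class and Snord52 and Snord49b of the C/D class were the others among the 6 largest falls of their class in the 4-week against the OVA arrays. Snora33, in the gene of ribosomal protein Rps12, measured 6.15, 5.88 and 6.26 in the 4-week arrays and 7.09, 7.80 and 7.85 in the OVA arrays (log2 change -1.48, SE 0.22, limma adjusted p = 0.00837). Snord52 measured 3.16, 3.39 and 3.49 in the 4-week arrays and 4.55, 4.53 and 4.42 in the OVA arrays (-1.16, SE 0.17, 0.00885), near the low end of the array's range. The groups did not overlap in either. Snord49b, in the non-coding host 2410006H16Rik, measured 8.54, 8.64 and 8.50 in the 4-week arrays and 9.53, 9.53 and 9.64 in the OVA arrays (-1.01, SE 0.13, 0.00503). The remaining members that fell, with log2 changes from -1.17 to -0.32, were Snora74a (U19), Snora41, Snora70, Snora69 and Snora21 of the H/ACA class and Snord87, Snord15b, Snord85, Snord15a, Snord104, Snord22 and Snord55 of the C/D class.

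Snord42b, in an intron of Rpl23a, went the other way. It measured 6.97, 7.19 and 7.24 in the 4-week arrays, 6.75, 6.60 and 6.56 in the OVA arrays, and 6.74, 6.54 and 6.58 in the arrays labelled control. The 4-week arrays lay above the other 6. The difference from the OVA arrays was 0.49 (SE 0.10, 1.41-fold, limma adjusted p = 0.0227).

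The comparison was refitted 9 times, each time without another array. Of the 11 H/ACA calls between 4-week and OVA arrays, 8 held in all 9 fits, and of the 14 C/D calls 7 did. Among the members with values above, Snord42b lost its call in 4 fits (without 4-week replicate 2 or 3 or OVA replicate 2 or 3), with an adjusted p of up to 0.0842, and the others lost theirs in 0 fits. The C/D count dropped to 7 without 4-week replicate 2, to 7 without OVA replicate 2 and to 8 without OVA replicate 3. No called log2 change moved by over 1.5 times in these fits.

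Against the arrays labelled control, the OVA arrays held more of several snoRNAs, with the reserve that the 2 groups also differ in sex-linked transcripts. Of the H/ACA members 4 rose and 0 fell, and of the C/D members 3 rose and 0 fell (limma). The share that rose was 13.7% of the 51 members, where 0.782% of all probe sets rose, and 0% fell, where 0.521% of all probe sets fell. The median log2 change was 0.30 over the H/ACA members, 0.22 over the C/D members and -0.02 over all probe sets, and it was above 0 in 20 of 20 and in 27 of 31 members. The OVA arrays lay wholly above the arrays labelled control in 8 H/ACA and 11 C/D members, against 10.4% of all probe sets, and wholly below in 0 and 1, against 11.1%.

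The members that rose were led by the same genes whose values stand above. Both comparisons use the same OVA arrays. Snora44 was 4.12-fold higher in the OVA arrays than in those labelled control (log2 change 2.04, SE 0.15, limma adjusted p = 0.00128). Snord118 was 3.17-fold higher (1.67, SE 0.14, 0.00171) and Snora16a 2.34-fold higher (1.23, SE 0.10, 0.00171). These 3 calls held in all 9 fits without an array.

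The calls of the other members that rose depended on the arrays used. Snora31 was 2.28-fold higher in the OVA arrays (log2 change 1.19, SE 0.19, limma adjusted p = 0.0241) and lost its call in 6 of 9 fits, those without any of the OVA arrays or any of the arrays labelled control, with an adjusted p of up to 0.0960. Snora70, an X-linked snoRNA within Rpl10, measured 7.06, 7.32 and 7.21 in the OVA arrays, against 6.66, 6.66 and 6.52 in the arrays labelled control (0.58, SE 0.09, 0.0202), and lost its call in 4 fits (up to 0.0790), those without OVA replicate 2 or 3 or control replicate 2 or 3. The groups did not overlap. Snord104 measured 11.50, 11.80 and 11.48 in the OVA arrays, against 10.55, 10.99 and 10.75 in the arrays labelled control (0.83, SE 0.13, 0.0220), and lost its call in 5 fits (up to 0.0684), those without any of the OVA arrays, control replicate 1 or control replicate 3. Snord87, hosted by the non-coding Snhg6, measured 5.41, 5.60 and 5.31 in the OVA arrays, against 4.23, 4.70 and 4.91 in the arrays labelled control (0.83, SE 0.16, 0.0450), and lost its call in 7 fits (up to 0.133), holding it only without control replicate 1 or 3. All of these OVA values lay above the values of the arrays labelled control. The H/ACA count dropped to 2 without OVA replicate 2, OVA replicate 3, control replicate 2 or control replicate 3, and the C/D count to 1 without any of the OVA arrays.

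Some members with large differences did not pass and had wide spreads. Snord73b, in Rps3a1, averaged 7.91 ± 0.46 in the OVA arrays and 6.47 ± 0.72 in the arrays labelled control (SD, n = 3 each, log2 change 1.45, limma adjusted p = 0.0818). Snora33 averaged 7.58 ± 0.42 in the OVA arrays and 6.53 ± 0.29 in the arrays labelled control (1.05, limma adjusted p = 0.0607). Snora73a and Snora73b, the U17 snoRNAs of the Snhg3 host, differed by 0.57 and 0.78 (adjusted p = 0.367 and 0.224). The median SD within the arrays labelled control was 0.22 over the H/ACA and 0.21 over the C/D members.

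Against the arrays labelled control, the 4-week arrays held less of a smaller set. Of the H/ACA members 4 fell and 0 rose, and of the C/D members 8 fell and 2 rose (limma). The share that fell was 23.5% of the 51 members, where 6.45% of all probe sets fell, and 3.92% rose, where 7.92% of all probe sets rose. The median log2 change was -0.23 over the H/ACA, -0.11 over the C/D members and -0.04 over all probe sets. The split of C/D members into 10 above and 21 below 0 depended on the scaling: it was 15 and 16 after quantile normalization of the deposited values and 14 and 17 after median centring, so no direction is given for the class. The 4-week arrays lay wholly below in 9 H/ACA and 11 C/D members, against 18.4% of all probe sets, and wholly above in 0 and 2, against 16.6%.

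Snora52 and Snora3 led the fall in the H/ACA class. Snora52 was 2.40-fold lower in the 4-week arrays than in those labelled control (log2 change -1.26, SE 0.10, limma adjusted p = 0.000909) and Snora3 was 2.20-fold lower (-1.14, SE 0.15, 0.00332). Snora69, an X-linked snoRNA within Rpl39, measured 6.26, 6.29 and 6.29 in the 4-week arrays, 7.08, 7.20 and 6.90 in the OVA arrays, and 6.78, 6.92 and 6.77 in the arrays labelled control. It was 1.46-fold lower in the 4-week arrays than in those labelled control (-0.54, SE 0.09, 0.00639), with no overlap. Snora74a, the U19 snoRNA, fell by 0.83 (SE 0.22, 0.0403) and was not called in 5 fits (up to 0.121), namely without 4-week replicate 1 or 2, OVA replicate 3 or control replicate 2 or 3.

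In the C/D class the low 4-week members were again Snord33, Snord35a and Snord35b, with Snord85 and Snord52. Snord33 was 2.49-fold lower than in the arrays labelled control (log2 change -1.32, SE 0.20, limma adjusted p = 0.00525), Snord35b 1.94-fold (-0.96, SE 0.16, 0.00717) and Snord35a 1.83-fold lower (-0.87, SE 0.13, 0.00559). Snord85 measured 4.65, 4.78 and 4.79 in the 4-week arrays, 5.36, 5.56 and 5.44 in the OVA arrays, and 5.53, 5.72 and 5.65 in the arrays labelled control (-0.89, SE 0.08, 0.00107). Its 4-week values lay below all others, while OVA and labelled control values overlapped. Snord52 fell by 0.94 (SE 0.17, 0.0107) and Snord49b by 0.65 (SE 0.13, 0.0124), and Snord8 and Snord55 fell as well. Snord55 lost its call in 3 fits (without 4-week replicate 1 or 2 or control replicate 2, adjusted p up to 0.0658). Snord8 lost its call in 4 (without 4-week replicate 2 or any array labelled control, up to 0.0703).

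The 2 C/D members that rose in the 4-week arrays were Snord82 and Snord42b. Snord82, in an intron of the nucleolin gene Ncl, measured 10.26, 10.28 and 10.55 in the 4-week arrays, 10.16, 10.10 and 10.04 in the OVA arrays, and 9.56, 9.73 and 9.67 in the arrays labelled control. It was 1.63-fold higher in the 4-week arrays than in those labelled control (log2 change 0.71, SE 0.09, limma adjusted p = 0.00339), with no overlap. Snord42b was 1.43-fold higher (0.51, SE 0.10, 0.0110). Of all calls between 4-week arrays and arrays labelled control, 3 of 4 in the H/ACA and 8 of 10 in the C/D class held in all 9 fits.

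Many members passed in no comparison: 9 of the H/ACA and 15 of the C/D class. They include bright probe sets. Snord57, the brightest C/D member and carried by the gene of the C/D core protein Nop56, measured 11.29, 11.22 and 11.31 in the 4-week arrays, 11.27, 11.57 and 11.09 in the OVA arrays, and 11.13, 11.54 and 11.51 in the arrays labelled control. All 3 groups overlapped, and its 4-week minus OVA change was -0.04 (SE 0.14). Snora7a, in Rpl32, measured 9.21, 9.28 and 9.44 in the 4-week arrays, 9.22, 9.53 and 9.50 in the OVA arrays, and 8.85, 9.32 and 9.23 in the arrays labelled control. Its groups overlapped as well, with a 4-week minus OVA change of -0.11 (SE 0.14). The remaining 27 members passed in at least 1 comparison.

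U3, the C/D box snoRNA that begins the processing of the small-subunit ribosomal RNA, has the symbol Rnu3a and is left out by the symbol rule. Its values were looked up after those of the members had been seen. Rnu3a measured 5.30, 5.47 and 5.71 in the 4-week arrays, 6.40, 6.59 and 6.64 in the OVA arrays, and 5.17, 5.41 and 5.32 in the arrays labelled control. As for Snord118, the OVA values stood above all 6 others. It was lower in the 4-week than in the OVA arrays (log2 change -1.05, SE 0.12, limma adjusted p = 0.00363), higher in the OVA arrays than in those labelled control (1.24, SE 0.12, 0.00302), and 0.19 above the arrays labelled control in the 4-week arrays (SE 0.12, adjusted p = 0.285).

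The measured host genes, nearly all of them protein-coding, were higher as a set in the 4-week arrays, where their snoRNAs were lower as a set. A single-gene probe set of the host was available for 27 members in 23 hosts. Gas5 was the only non-coding host among them, so most members of non-coding hosts are not covered. Of 9 measured genes on a separate list of mainly non-coding hosts, 0 rose and 3 fell between 4-week and OVA arrays (limma). Their median log2 change was -0.29. Between 4-week and OVA arrays 8 of the 23 hosts rose and 0 fell (limma), where 3.81% of all probe sets rose and 2.51% fell. Genes with a ribosomal protein symbol, of which several are hosts, rose as a set too, with 15 of 52 called. The median log2 change was -0.41 over the 27 members and 0.26 over their hosts. The member lay below its host in 25 of the 27 and had the opposite sign in 20. Between OVA arrays and arrays labelled control 0 hosts passed, with a host median of -0.01 beside a member median of 0.22, and 23 of 27 members lay above their host. Between 4-week arrays and arrays labelled control 11 hosts rose and 0 fell, where 7.92% of all probe sets rose and 6.45% fell. In that comparison 23 of 27 members lay below their host and 16 had the opposite sign, beside 13 between OVA arrays and arrays labelled control. Member and host changes were weakly correlated over the 27 members. Pearson r was -0.285 for 4-week minus OVA, 0.103 for OVA minus labelled control and -0.02 for 4-week minus labelled control. All of these values are changes and not levels, since the levels of different probe sets are not comparable.

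**Figure D4:**
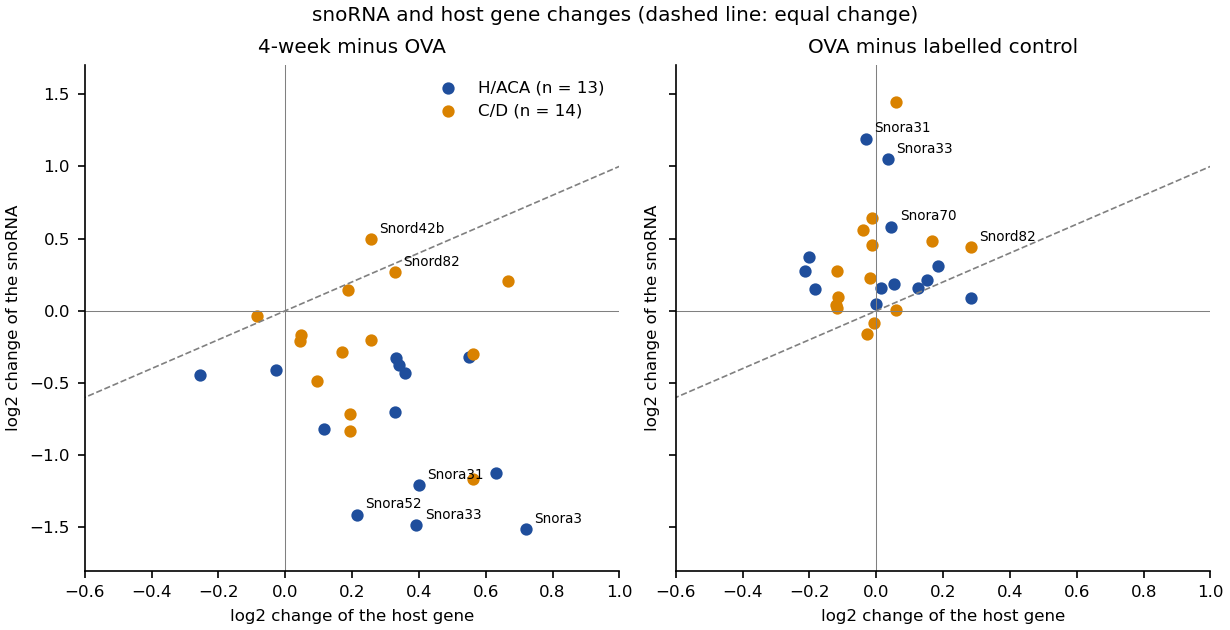
Log2 change of 27 members (vertical) against that of their host gene (horizontal), for 4-week minus OVA arrays at left and OVA minus labelled control arrays at right. Each point is a member, members of the same host share a horizontal position, and the dashed line marks equal change. In the left panel 25 of 27 points lie below the line, and in the right panel 23 of 27 lie above it.

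Named hosts show the contrast. Rpl27a was 0.72 higher in the 4-week than in the OVA arrays (SE 0.08, limma adjusted p = 0.00353) while its Snora3 was 1.51 lower on the log2 scale (log2 change -1.51). Tpt1 was 0.40 higher (SE 0.08, 0.0213) beside -1.20 for Snora31, and Eef1b2, a translation elongation factor gene, 0.63 higher (SE 0.08, 0.00554) beside -1.12 for Snora41. The call of Snora41 was lost in 7 fits, all but those without OVA replicate 1 or control replicate 2 (adjusted p up to 0.129). Other hosts did not pass: Rps12 differed by 0.39 (0.0647) beside -1.48 for Snora33, Rplp2 by 0.22 (0.185) beside -1.41 for Snora52, and Rpl10 by 0.12 (0.403) beside -0.82 for Snora70. Ribosomal protein genes have many near-identical pseudogene copies, so their probe sets may read several loci and the host values are uncertain to that extent. Rpl13a and Snhg12 had no single-gene probe set.

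The host kinds were ordered differently between the comparisons. The 13 members of non-coding hosts had 8 falls and 0 rises between 4-week and OVA arrays and a median log2 change of -0.84. The 23 members of ribosomal protein hosts had 12 falls, 1 rise and a median of -0.46, and the 14 members of other coding hosts 3 falls, 0 rises and a median of -0.42. Between OVA arrays and arrays labelled control the medians were 0.56, 0.23 and 0.20, with 4, 1 and 1 rises. Between 4-week arrays and arrays labelled control they were -0.19, -0.24 and -0.16 in that order of hosts, with 4, 7 and 1 falls, so the members of non-coding hosts did not have the largest median there. Over all probe sets, 2.51% fell and 3.81% rose between 4-week and OVA arrays. Between OVA arrays and arrays labelled control 0.782% of all probe sets rose, and between 4-week arrays and arrays labelled control 6.45% fell. The difference between these host groups was not tested.

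Of the hosts, 10 carried 2 members each, and some of these pairs differed. The Snhg12 pair passed together in the comparisons of the OVA arrays with the 4-week arrays and with those labelled control. The Rpl13a pair passed in both comparisons of the 4-week arrays, and Snord15a and Snord15b (the U15 snoRNAs of Rps3) passed between 4-week and OVA arrays, at -0.71 (limma adjusted p = 0.0474) and -0.83 (0.0342). Snord15a was not called in 7 of those 9 refits (all but those without OVA replicate 1 or control replicate 1, up to 0.139), and Snord15b in 5 (without any 4-week array or OVA replicate 2 or 3, up to 0.119). By contrast, Snora75 and Snord82 share the host Ncl and had 4-week minus OVA changes of -0.70 (0.0881) and 0.27 (0.122). Snord42a and Snord42b share Rpl23a and had changes of -0.20 (0.261) and 0.49 (0.0227). Snord73a and Snord73b share Rps3a1, and their OVA minus labelled control changes were 0.00 and 1.45.

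The core protein partners of the snoRNAs did not pass. None of the 4 C/D core proteins (Fbl, Nop56, Nop58, Snu13) and none of the 4 H/ACA core proteins (Dkc1, Gar1, Nhp2, Nop10) passed in any of the comparisons. Their 4-week minus OVA changes ran from -0.22 (Nhp2) to 0.14 (Dkc1). Of 14 measured assembly factors, Nufip1, an adaptor for box C/D assembly, rose in the 4-week arrays against the OVA arrays (0.44, SE 0.07, limma adjusted p = 0.0123) and against those labelled control (0.48, SE 0.07, 0.00535). Hsp90aa1 also rose (0.51, SE 0.12, 0.0236) and Shq1, the dyskerin chaperone, fell by 0.56 (SE 0.11, 0.0133) against the arrays labelled control. The other assembly factors did not pass in these comparisons, and 0 of 14 passed between OVA arrays and arrays labelled control. Over all probe sets, 3.81% rose and 2.51% fell between 4-week and OVA arrays. Between 4-week arrays and arrays labelled control 7.92% of all probe sets rose and 6.45% fell.

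Among 15 genes of snoRNA 3′ processing and decay, 0 passed between OVA arrays and arrays labelled control and 0 between 4-week and OVA arrays. In the 4-week arrays 3 rose against the arrays labelled control: Rbm7 (0.78, SE 0.13, limma adjusted p = 0.00801) and Zcchc7 (0.41, SE 0.09, 0.0206), partners of the nuclear exosome, and Exosc10, one of its catalytic subunits (0.25, SE 0.07, 0.0469). Their 4-week minus OVA changes were 0.46, 0.23 and 0.25 and did not pass (adjusted p = 0.0775, 0.173 and 0.0746). The shares over all probe sets were 7.92% higher and 6.45% lower between 4-week arrays and arrays labelled control. They were 3.81% higher and 2.51% lower between 4-week and OVA arrays. Of 25 genes of RNA polymerase I and the nucleolus, 5 rose and 1 fell between 4-week and OVA arrays, and 0 passed between OVA arrays and arrays labelled control. Those that rose include Ncl (0.33, 0.0294), Npm1 (0.44, 0.0416) and Imp3 (0.38, 0.0275), and Taf1d fell by 0.62 (0.00503). Taf1d, Snhg15 and Snhg17 are also snoRNA hosts and were the 3 of 9 measured non-coding or listed hosts that fell between 4-week and OVA arrays, Snhg15 by 0.76 (0.0198) and Snhg17 by 0.44 (0.0314).

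Other short transcripts and sets were read on the same arrays. The RNA was isolated with a silica column kit, and how well such short RNAs were recovered on each array was not measured. The median over 291 microRNA genes was 4.16 to 4.29 in the 4-week arrays, 4.34 to 4.44 in the OVA arrays and 4.46 to 4.54 in the arrays labelled control, the highest group being the labelled control and not the OVA arrays. The microRNA medians all lay under 5, where signal over background is unknown. Of the 291 genes 12 fell and 2 rose between 4-week and OVA arrays (limma), where 2.51% of all probe sets fell and 3.81% rose. Between OVA arrays and arrays labelled control 2 fell and 0 rose, where 0.521% of all probe sets fell and 0.782% rose. Between 4-week arrays and arrays labelled control 39 fell and 2 rose, where 6.45% of all probe sets fell and 7.92% rose. Of 3 small Cajal body RNAs, which guide modification of spliceosomal RNAs, Scarna8 fell by 0.60 between 4-week and OVA arrays (SE 0.14, adjusted p = 0.0381), and Scarna13 and Scarna17 had changes of 0.00 there. Scarna13 rose by 0.74 in the 4-week arrays against those labelled control (SE 0.21, adjusted p = 0.0488), and 0 of the 3 passed between OVA arrays and arrays labelled control. The 52 genes with a ribosomal protein symbol (Rpl or Rps and a number) went the other way. They had 15 rises and 0 falls and a median of 0.23 between 4-week and OVA arrays. The symbol rule also took in Rps19bp1 and Rps23rg1, neither of them called there, and left out Rplp2 and Rpsa.

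**Figure D5:**
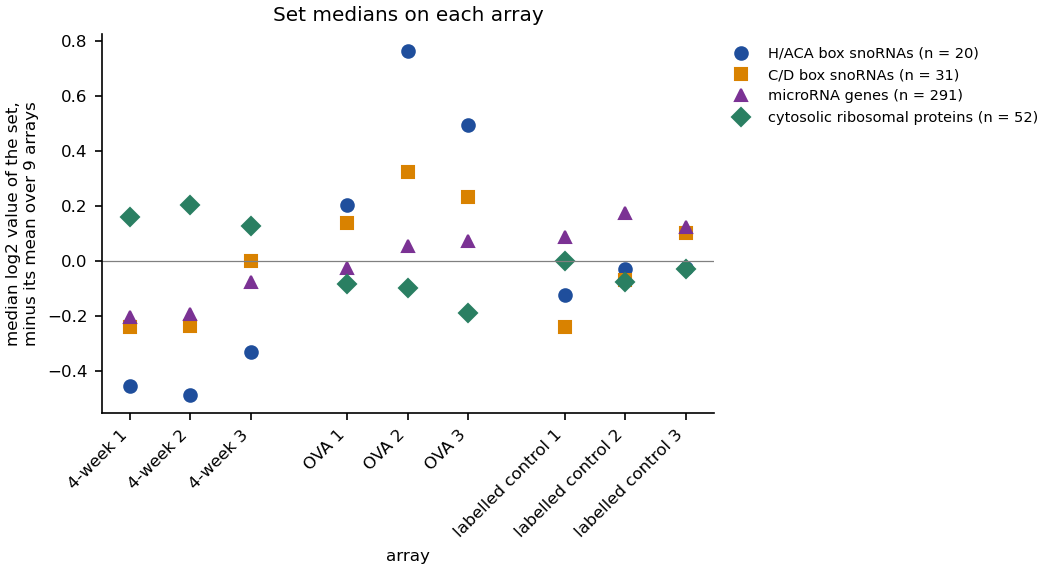
Median log2 value of 4 gene sets on each array, minus the set's mean over the 9 arrays, in the order 4-week, OVA, labelled control. The H/ACA and C/D medians are highest in the OVA arrays, the microRNA medians highest in the arrays labelled control, and the ribosomal protein medians highest in the 4-week arrays.

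Arrays of the same group also differed in the family as a whole. The median over the H/ACA members was 6.58, 6.55 and 6.71 in the 4-week arrays, 7.24, 7.80 and 7.53 in the OVA arrays, and 6.91, 7.01 and 7.01 in the arrays labelled control. That over the C/D members was 6.37, 6.38 and 6.61 in the 4-week arrays, 6.75, 6.94 and 6.84 in the OVA arrays, and 6.37, 6.54 and 6.72 in the arrays labelled control. The OVA arrays were above all others in both classes. Within groups, control replicate 1 was the lowest of its group in 39 members (76.5%), against 35.5% of all probe sets, and control replicate 2 the highest in 36 (70.6%), against 27.8%. Similarly 4-week replicate 3 was the highest of its group in 34 members (66.7%, against 29.8%), OVA replicate 1 the lowest in 30 (58.8%, against 42.5%) and OVA replicate 2 the highest in 25 (49.0%, against 37.7%). Members thus shared shifts between arrays of the same group, and counts over members are not counts of independent events. Without control replicate 1 the C/D median of OVA minus labelled control was 0.08 in place of 0.22, and that of 4-week minus labelled control -0.21 in place of -0.11. The H/ACA median of OVA minus labelled control, 0.30 with all arrays, was 0.45 without OVA replicate 1 and 0.20 without OVA replicate 2, with 18 of 20 members above 0 in that last fit.

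Length went with the size of the change. The 24 members over the median length of 91 nucleotides had a median 4-week minus OVA change of -0.80 with 15 falls, and the 27 shorter or equal members -0.30 with 9 falls and 1 rise. Over all probe sets 2.51% fell and 3.81% rose in that comparison. Most H/ACA members are among the longer ones. The C/D members over 91 nucleotides were Snord118, Snord15b, Snord15a, Snord22 and Snord8. Their 4-week minus OVA changes were -2.12, -0.83, -0.71, -0.62 and -0.39, and all but that of Snord8 passed. The parts of class and length were not tested.

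Cell type markers were read beside these results. The median over 10 eosinophil and mast cell markers was 5.59 to 5.63 in the 4-week arrays, 5.45 to 6.47 in the OVA arrays and 4.87 to 5.07 in the arrays labelled control, and 0 of the 10 passed in any comparison. The median of the 10 log2 changes from the arrays labelled control to the 4-week arrays was -0.03. There Epx, Prg2, Siglecf, Ccr3, Il5ra and Cma1 had negative changes, and Mcpt1, Mcpt2, Cpa3 and Tpsb2 positive ones. The mast cell protease genes Mcpt1 and Mcpt2 had large differences with a wide spread. Mcpt1 measured 6.42, 6.71 and 7.10 in the 4-week arrays, 9.37, 5.98 and 9.95 in the OVA arrays, and 4.02, 5.08 and 3.83 in the arrays labelled control, or 17.4-fold higher in the OVA arrays than in those labelled control (limma adjusted p = 0.0659). Mcpt2 was 13.8-fold higher there (adjusted p = 0.0574), and in the 4-week arrays the pair was 5.39-fold (Mcpt1, 0.0938) and 5.07-fold (Mcpt2, 0.0726) higher than in the arrays labelled control. OVA replicate 2 was the lowest OVA array for both proteases. Of 10 neutrophil markers 1 rose between OVA arrays and arrays labelled control and 1 fell between 4-week and OVA arrays. Of the respiratory epithelium (10 markers) and of muscle and bone (9 measured markers) 0 passed in any comparison. Of 9 measured lymphocyte markers 1 rose, and of 8 measured olfactory markers 1 rose and 1 fell, between 4-week arrays and arrays labelled control, and 1 olfactory marker rose between OVA arrays and arrays labelled control. The olfactory marker medians, 10.42 to 10.87 in the 4-week arrays, 10.43 to 10.63 in the OVA arrays and 10.43 to 10.82 in the arrays labelled control, overlapped; they were bright in every sample labelled nasal mucosa. Over all probe sets, 7.92% rose and 6.45% fell between 4-week arrays and arrays labelled control. Between OVA arrays and arrays labelled control 0.782% of all probe sets rose, and between 4-week and OVA arrays 2.51% fell. The part of cell composition in the snoRNA changes was not tested.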

How the data were processed

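The authors deposited log2 values, 1 per probe set and array, computed with RMA per the submitters' processing notes. The log2 scale was inferred from the values, which range from 1.63 to 13.8, while for the version of RMA nothing is given in the sources used here. No detection calls come with them, and precision is limited by the small number of arrays, 3 in each group. Of 35556 rows, 23410 carried a gene symbol in the 2016 platform annotation and were tested, 21789 of them with a single gene. Groups came from the labels. Differences were tested with limma 3.58.1 (R 4.3.3) in a single model over the 9 arrays (lmFit, contrasts.fit, eBayes, 6 residual degrees of freedom), two-sided, with Benjamini-Hochberg adjustment over 23410 probe sets within each contrast and a threshold of 0.05. The fit was tested on simulated data.

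Members and lists were chosen with earlier results of these data known. Named members were, per contrast, class and direction, up to 6 with the largest change past the threshold, the brightest and dimmest of each class, their hosts and up to 4 genes per list. Further members and U3 were named after their values were seen. A host is the shortest gene, other than a small RNA gene, whose span in the RefSeq GRCm38.p6 table encloses the snoRNA. The table gives no strand, so the same strand, planned as a condition, was not required. All 51 members matched that table, and start regions came from RefSeq on the same build.

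The alternatives were quantile normalization, median centring, 1 probe set per gene, every row of the table, the upper 60% of probe sets by mean, only the groups compared, eBayes with trend and robust settings, array weights, the replicate number as a block, the second probe set of a member, each array left out and, chosen after seeing the data, repeated rows left out.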

Additional observations from a re-analysis of the deposited data

How the results depend on the processing

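No called change of a member reversed its direction under any alternative run. The number of C/D members called between OVA arrays and arrays labelled control was 3, and it was 1 when every row of the table was tested and 1 when only the 2 groups compared were fitted. With each array left out in turn, the H/ACA counts ranged from 2 to 4 for OVA minus labelled control, from 8 to 11 for 4-week minus OVA and from 3 to 5 for 4-week minus labelled control. The C/D counts ranged from 1 to 3, from 7 to 16 and from 8 to 11 in the same order of comparisons. The other alternatives left all 6 counts within 1.5 times of those reported. Whether the replicate numbers of the titles pair the samples was not settled, because differently numbered arrays were not correlated. With group means removed, the correlations of same-numbered arrays were 0.307, 0.0311 and 0.147 (OVA and labelled control), 0.185, -0.0286 and 0.332 (4-week and OVA) and -0.0438, 0.059 and 0.186 (4-week and labelled control). With the replicate number as a block, 24 of 25, 14 of 14 and 5 of 7 member calls held for 4-week minus OVA, 4-week minus labelled control and OVA minus labelled control. The H/ACA counts with the replicate block were 10, 4 and 3 in that order, and the C/D counts 14, 10 and 3.

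Limits are the 3 arrays per group, the missing detection calls, the sex-linked mismatch of the arrays labelled control, and probe sets that cannot separate a mature snoRNA from its host intron. The second probe set of Snora21 gave a 4-week minus OVA change of -0.68 (adjusted p = 0.00614) and a 4-week minus labelled control change of -0.52 (0.00855), against -0.32 and -0.17 for the probe set used. The 4-week minus OVA call of the probe set used failed in 8 of 9 refits with an array left out (all but that without 4-week replicate 3) and after quantile normalization (0.0635) and median centring (0.0613), with every row tested (0.0537), with only the groups compared (0.0807) and with the replicate block (0.0649). Another scaling moved the median of all probe sets by less than 0.1 on the log2 scale.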
